A study of Homo sapiens with 12 samples.

Results

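The genes described here are MYC, MYCN, their partner MAX and 6 further genes of the same network of transcription factors: MXD1, MXD3, MXD4, MNT, MGA and MLX. They were chosen by name, with earlier results of these data known. Each was represented by the brightest of its probe sets that carry a single gene symbol. Of the 9 genes, 8 had such a probe set, among 19775 genes of the array that had one, and all 8 lay above the brightness filter and were tested among 11774 genes. The probe sets of MXD4 each carried several symbols, so no value is given for it.

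RNA of SH-SY5Y, a human neuroblastoma cell line of noradrenergic character that carries no MYCN amplification, was measured on 12 Affymetrix 3′ expression arrays. There were 4 groups of 3 arrays: cells given oligomeric amyloid-β with a 6 h incubation, the 6 h control, cells given fibrillar amyloid-β with a 24 h incubation, and the 24 h control. What the controls received, and whether the incubation is that of the peptide or of the cells, is not given in the sources used here. Peptide form and hours differed at the same time and cannot be told apart. The labels do not say that replicates were separate cultures, and the p-values then measure only the spread between these samples. In bulk RNA, fewer cells of a type and less RNA per cell cannot be told apart.

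MYC and MYCN proteins act as pairs with MAX, which bind the E-box sequence CACGTG and raise genes of growth, ribosome production and metabolism. MXD proteins and MNT compete for MAX, bind the same sites and recruit SIN3 corepressors, while MGA is a MAX partner found in a repressive Polycomb complex. MLX is a second hub that pairs with MXD1, MXD4, MNT and the glucose-responsive factors MondoA and ChREBP. MYCN is the family member most closely tied to neuroblastoma.

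The arrays had been scaled to an equal trimmed mean signal, and their median log2 signal was 3.89 to 4.12. The 3′ minus 5′ signal of the GAPDH and ACTB control probe sets, a measure of RNA integrity, was 1.43 to 1.58 on the log2 scale in the 24 h controls. It was 1.48 to 1.94 with fibrillar peptide, 1.80 to 2.04 in the 6 h controls and 1.63 to 1.80 with oligomeric peptide. Of 14 noradrenergic neuroblastoma markers with a probe set, 13 lay above the filter, and TH lay below it. Their summed signal was 14.3 to 14.4 on the log2 scale over all arrays of each group. Of 15 markers of other cell types, 5 lay above the filter (PECAM1, EPCAM, PDGFRB, COL1A1 and COL3A1), and PTPRC, CD3E, VWF, GFAP and AQP4 lay below it. The whole list's summed signal was at most 11.4 on the log2 scale in any group, with a lowest and highest of 11.1 and 11.3 in the 6 h controls. COL3A1 alone had a mean of 10.9 over the 12 arrays and COL1A1 had 8.35, while TH of the noradrenergic markers had 0.73.

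Promoter sequence is shown for MYCN and MNT, the members with the largest changes, and for MLX. MLX was level by its brightest probe set and held an E-box. Each sequence is the 250 bases before the RefSeq start site on the gene's strand in GRCh38.p14. Capitals in MNT (chr17:2401061-2401310, minus strand) and MLX (chr17:42566850-42567099, plus strand) mark the E-box CACGTG. Those in MYCN (chr2:15940300-15940549, plus strand) mark an E2F-type match (TTT, any base, GCGC, any base, AAA), a motif chosen after this window was read.
MYCN: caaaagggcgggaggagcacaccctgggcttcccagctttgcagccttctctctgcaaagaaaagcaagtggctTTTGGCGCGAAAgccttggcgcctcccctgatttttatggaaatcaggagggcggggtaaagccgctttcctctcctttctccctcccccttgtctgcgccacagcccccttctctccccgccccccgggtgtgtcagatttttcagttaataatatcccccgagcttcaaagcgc
MNT: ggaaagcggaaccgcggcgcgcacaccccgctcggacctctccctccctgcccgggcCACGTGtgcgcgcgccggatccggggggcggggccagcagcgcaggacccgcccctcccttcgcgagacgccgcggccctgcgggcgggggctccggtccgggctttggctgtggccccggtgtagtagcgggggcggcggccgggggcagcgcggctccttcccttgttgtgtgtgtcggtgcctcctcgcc
MLX: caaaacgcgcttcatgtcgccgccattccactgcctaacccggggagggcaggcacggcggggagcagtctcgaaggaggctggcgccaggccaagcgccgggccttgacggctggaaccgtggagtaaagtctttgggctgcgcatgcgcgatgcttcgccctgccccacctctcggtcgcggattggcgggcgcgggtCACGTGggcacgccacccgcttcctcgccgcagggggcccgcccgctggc
The match began 176 bases before the start in MYCN, 193 in MNT and 50 in MLX. On both strands, CACGTG was found in 2228 of 35116 RefSeq windows of the same length (6.345%) and the E2F-type motif in 9 (0.026%). Among the members, 8 had a window, 11 windows in all, and MXD4, MNT and MLX held an E-box. A window of MGA held the variant CACGCG, which 9.716% of all windows hold. Of the genes known to be raised by MYC that had a window, 14 of 40 held the E-box, against 2110 of 27305 genes of the table (7.728%). None of 9 genes known to be lowered by MYC held it, and 4 of 7 MLX and MondoA targets did. These are matches of letters and say nothing of binding.

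MYC was lowest, and MNT highest, in cells given fibrillar peptide. The fibrillar-treated cells had 0.686 times the MYC signal and 1.91 times the MNT signal of the 24 h controls. Neither gene was called after oligomeric peptide, where none of the 11774 genes tested was. A difference between the preparations was not shown for either gene. MYCN was not called with fibrillar peptide (-0.18 on the log2 scale, against -0.54 for MYC), and its fibrillar arrays overlapped the 24 h controls. A different response of MYC and MYCN was not shown. The difference of their log2 signals within each array changed by -0.37 with fibrillar peptide (two-sided exact permutation p = 0.4). MYCN rose between the 6 h and the 24 h controls. MAX and MLX, the shared partners, each spanned 0.25 log2 units over the 12 arrays. All these values are those of the brightest probe sets. With fibrillar peptide a dimmer probe set of MAX gave -0.86 without overlap, and the dimmer one of MNT gave -0.12.

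**Figure D1:**
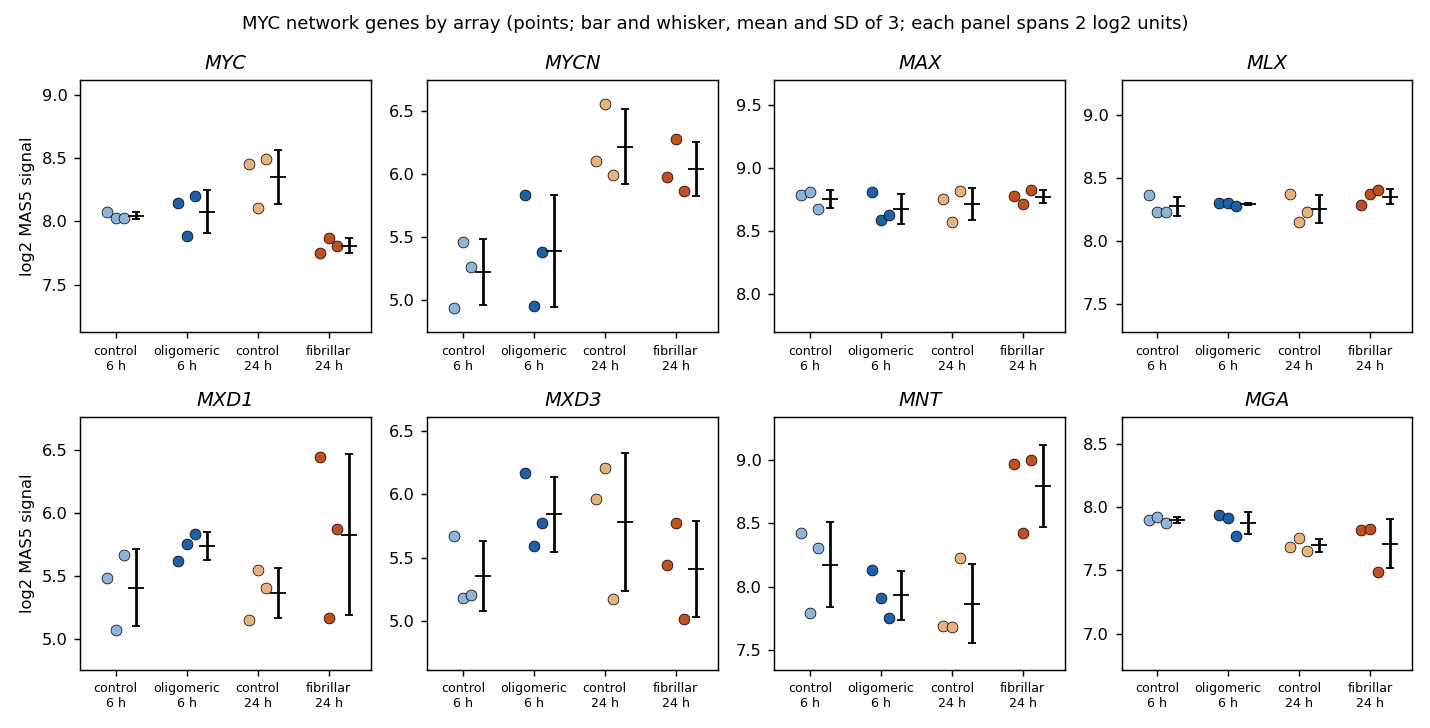
Log2 MAS5 signal of 8 MYC network genes on each of 12 arrays, by treatment group; each point is an array, the bar and whisker are the mean and SD of 3, and every panel spans 2 log2 units. The 3 fibrillar arrays are the lowest for MYC (7.75 to 7.87) and the highest for MNT (8.42 to 9.0), and both 24 h groups are above both 6 h groups for MYCN.

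MYC, the oncogene of the family that acts in most dividing cells, lies at chr8:127735434-127742951 and was measured by its single probe set. Its log2 signals were 8.08, 8.03 and 8.03 in the 6 h controls and 8.15, 7.89 and 8.20 with oligomeric peptide. They were 8.45, 8.11 and 8.49 in the 24 h controls and 7.75, 7.87 and 7.81 with fibrillar peptide. The fibrillar arrays lay below all others, while the oligomeric arrays lay on both sides of their controls. The means were 8.04 ± 0.03, 8.08 ± 0.17, 8.35 ± 0.21 and 7.81 ± 0.06 in that order of groups (SD, n = 3).

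MYC fell with fibrillar peptide by 0.54 on the log2 scale (SE 0.11, 95% confidence interval -0.77 to -0.31; limma, adjusted p = 0.0318 over 11774 genes). The 24 h controls, against which this fall is measured, held the highest MYC of the 4 groups, and 1 of their 3 arrays, replicate 2, was at 8.11. Leaving out 1 array at a time gave changes from -0.67 to -0.47. The call was lost without control replicate 1 (-0.49, adjusted p = 0.144), control replicate 3 (-0.47, adjusted p = 0.126), fibrillar replicate 1 (-0.51, adjusted p = 0.0789) or fibrillar replicate 3 (-0.54, adjusted p = 0.112). It was also lost with each array centred on its median (-0.47, adjusted p = 0.0566) and with other settings of the fit given in the closing section. With oligomeric peptide the change was 0.03 (95% confidence interval -0.20 to 0.26, adjusted p = 1.0).

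MNT, the repressor that is the most widely expressed rival of MYC for MAX, lies at chr17:2384073-2401060 and was measured by the brighter of its 2 probe sets. Its log2 signals were 8.42, 7.79 and 8.30 in the 6 h controls and 8.13, 7.91 and 7.75 with oligomeric peptide. They were 7.69, 7.68 and 8.22 in the 24 h controls and 8.97, 8.42 and 9.0 with fibrillar peptide. Every fibrillar array was above every other array, although replicate 2 only just cleared the highest 6 h control, and the other 3 groups overlapped. The means were 8.17 ± 0.34, 7.93 ± 0.19, 7.86 ± 0.31 and 8.80 ± 0.33 (SD, n = 3).

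MNT rose with fibrillar peptide by 0.93 (SE 0.18, 95% confidence interval 0.54 to 1.33, adjusted p = 0.0287). Replicate 2 of the fibrillar arrays had the highest MYC and the lowest MNT of the 3. Replicate 2 also had the lowest 3′ minus 5′ control signal of the 3, 1.48 against 1.94 in replicate 1 and 1.71 in replicate 3. With that measure as a covariate over all 12 arrays, MNT rose less and was no longer called (0.68, adjusted p = 0.129), while the MYC change was -0.56 (adjusted p = 0.0814). The MNT call was also lost without control replicate 1 (0.85, adjusted p = 0.136), control replicate 2 (0.84, adjusted p = 0.0746), fibrillar replicate 1 (0.85, adjusted p = 0.0804) or fibrillar replicate 3 (0.83, adjusted p = 0.139).

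The second MNT probe set was much dimmer and did not show the rise. Its mean was 4.26 ± 0.63 in the 24 h controls and 4.14 ± 0.44 with fibrillar peptide, a change of -0.12 (SE 0.55). With the mean of both probe sets in place of the brighter one, the MNT change was 0.41 (adjusted p = 0.544). The 5′ signal of 18S ribosomal RNA was 11.4 to 11.8 in the 24 h controls and just above that, at 11.8 to 11.9, in the 3 fibrillar arrays, and it was 10.1 to 10.7 in the oligomeric arrays. Its part in the MYC and MNT changes was not tested. With oligomeric peptide MNT stood at -0.24 against its control (95% confidence interval -0.63 to 0.15, adjusted p = 1.0).

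Over all genes, 1.19% were called in the fibrillar comparison, 0.798% higher and 0.391% lower, and 2 of the 8 members were, 1 in each direction. Groups that did not overlap were seen for the same 2 of 8 members, and for 19.7% of all genes. The members' median change was 0.04, against -0.00053 over all genes, of which the middle 50% lay between -0.13 and 0.13. By the p-value, MNT stood at rank 46 and MYC at rank 48 among the 11774 genes.

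MYCN, the family member of the developing nervous system, lies at chr2:15940550-15947004 in band 2p24. Of its 10 probe sets 1 lay above the filter. Its log2 signals were 4.94, 5.46 and 5.26 in the 6 h controls and 5.84, 4.95 and 5.38 with oligomeric peptide. They were 6.11, 6.55 and 5.99 in the 24 h controls and 5.98, 6.28 and 5.86 with fibrillar peptide. Both 24 h groups lay above both 6 h groups, by little from the highest oligomeric array, and treated and control arrays overlapped at each time. The means were 5.22 ± 0.26, 5.39 ± 0.44, 6.22 ± 0.29 and 6.04 ± 0.21 (SD, n = 3).

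MYCN rose between the 6 h and the 24 h controls by 0.99 (SE 0.24, 95% confidence interval 0.50 to 1.49, adjusted p = 0.0122), a factor of 1.99. The call was lost without 6 h control replicate 1 (0.85, adjusted p = 0.0548) or 24 h control replicate 2 (0.83, adjusted p = 0.0555). It was lost too with the 3′ minus 5′ measure as a covariate (0.85, adjusted p = 0.191), and in these controls that measure did not overlap between the times. The 18S signal was 9.31 to 10.3 in the 6 h controls and 11.4 to 11.8 in the 24 h controls. The part of the 18S signal in the MYCN rise was not tested. In this comparison 11.7% of all genes were called (3.76% higher, 7.92% lower), and 1 of 8 members was, a share near that of all genes.

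With fibrillar peptide MYCN differed from its control by -0.18 (95% confidence interval -0.67 to 0.32, adjusted p = 0.801), and with oligomeric peptide by 0.17 (95% confidence interval -0.33 to 0.67, adjusted p = 1.0). These intervals are wide, and a change of the size seen for MYC lies inside the fibrillar one. Between the treated groups, fibrillar at 24 h against oligomeric at 6 h, the MYCN groups did not overlap, with a difference of 0.65 that missed the threshold (SE 0.24, adjusted p = 0.0723). Without oligomeric replicate 1, its highest array, it was 0.87 (adjusted p = 0.023). The other 9 MYCN probe sets were under the filter on brightness, with means over the 12 arrays of -0.57 to 1.75, and no change is read from them.

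MYC stood higher at 24 h in the controls and lower at 24 h in the treated cells, and neither difference was called. It was higher by 0.31 in the 24 h than in the 6 h controls (SE 0.11, adjusted p = 0.0814), with groups that did not overlap. Without 24 h control replicate 2 this was 0.43 (adjusted p = 0.0184), and with array weights it was 0.32 (adjusted p = 0.0426). Fibrillar at 24 h against oligomeric at 6 h gave -0.27 (SE 0.11, adjusted p = 0.107), again without overlap. MNT rose in the latter comparison by 0.87 (SE 0.18, adjusted p = 0.0054), where 15.1% of all genes were called and 1 of 8 members was. That call was lost on averaging its probe sets (0.44, adjusted p = 0.321), of which the dimmer stood at 0.0022 (SE 0.55). MNT stood at -0.31 (adjusted p = 0.310) between the controls. Groups without overlap made up 32.6% of all genes between the controls and 31.2% between the treated groups.

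**Figure D2:**
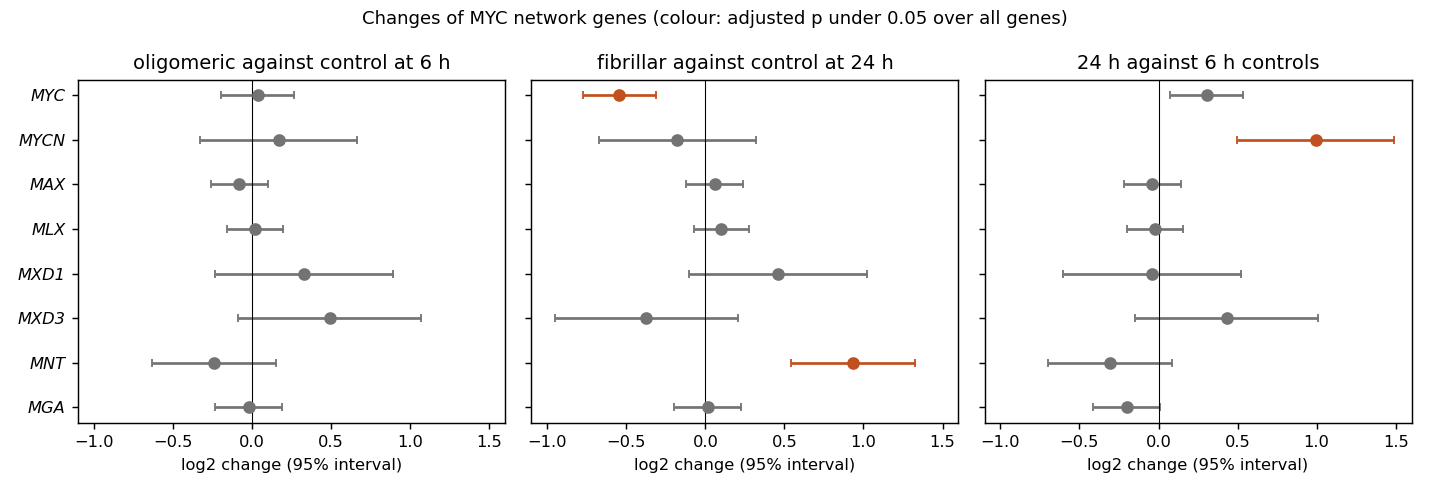
Log2 change of each member with its 95% confidence interval in 3 comparisons from the limma fit over 12 arrays; colour marks an adjusted p under 0.05 over all 11774 genes. MYC (-0.54) and MNT (0.93) were called with fibrillar peptide, MYCN (0.99) between the controls, and none with oligomeric peptide, where no gene of the 11774 was called.

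Over the 4 groups at once, the moderated F test of limma called MNT (F = 10.6, adjusted p = 0.00612), MYCN (F = 8.51, adjusted p = 0.0131) and MYC (F = 8.32, adjusted p = 0.0141). These were 3 of 8 members, against 18.5% of all genes, and the other 5 had adjusted p-values from 0.277 to 0.788. The MYC call was lost without 24 h control replicate 1 (F = 5.42, adjusted p = 0.0613) or replicate 3 (F = 5.36, adjusted p = 0.0623). The MNT call was lost on averaging its probe sets (F = 2.24, adjusted p = 0.291) and with a constant prior variance (F = 7.44, adjusted p = 0.0514), and the MYCN call with the RNA quality covariate (F = 3.98, adjusted p = 0.122). In rising order of means, MYC ran from fibrillar to 6 h control, oligomeric and 24 h control, and in that order the fibrillar step alone was without overlap. MYCN ran from 6 h control to oligomeric, fibrillar and 24 h control, and the step from oligomeric to fibrillar alone was without overlap. MNT ran from 24 h control to oligomeric, 6 h control and fibrillar, with the last step alone without overlap.

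Whether the preparations differed in effect was tested as the fibrillar change less the oligomeric one. It was 1.18 for MNT (SE 0.26, adjusted p = 0.122), -0.58 for MYC (SE 0.15, adjusted p = 0.227) and -0.34 for MYCN (SE 0.33, adjusted p = 0.835). No member passed, and 5 of all genes did (0.0425%), so a difference between the preparations was not shown for any member. Without fibrillar replicate 2, MNT was at 1.36 and passed (adjusted p = 0.0178). With array weights it passed too, at 1.28 (adjusted p = 0.0462). With the RNA quality covariate it was 0.74 (adjusted p = 0.579), and on averaging its probe sets 0.16 (adjusted p = 0.941), the dimmer one alone standing at -0.85 (SE 0.78).

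MYC and MYCN were also set against each other by the difference of their log2 signals within each array. Since each has its own probe set, this difference is read by its change alone and not as a ratio of transcripts. It was 2.82 ± 0.29 in the 6 h controls, 2.69 ± 0.33 with oligomeric peptide, 2.13 ± 0.51 in the 24 h controls and 1.77 ± 0.18 with fibrillar peptide (SD, n = 3). The difference was lower at 24 h by 0.69 in the controls and by 0.92 between the treated groups, and the arrays did not overlap in either case. The two-sided exact permutation p was 0.1 in both, the smallest that 3 arrays against 3 allow. Against their own controls, fibrillar peptide gave -0.37 (exact p = 0.4) and oligomeric peptide -0.13 (exact p = 0.7). Leaving out 1 array gave -0.87 to -0.40 between the controls (lowest in size without 24 h control replicate 2) and -1.11 to -0.80 between the treated groups. It gave -0.66 to -0.18 with fibrillar peptide, -0.66 without 24 h control replicate 2 and -0.18 without replicate 3. With oligomeric peptide it gave -0.26 to 0.05, above 0 without 6 h control replicate 1 or oligomeric replicate 1. Adjusted over the 4 comparisons, the exact permutation p-values were 0.2, 0.2, 0.533 and 0.7. Permuting the arrays over all 4 groups gave an exact p of 0.0286. The RNA quality covariate, with which MYCN lost its call between the controls, was not applied to this difference.

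MYC less MNT, a difference looked at after their values were seen and so given with no test, was -0.99 ± 0.38 with fibrillar peptide (SD, n = 3). It was 0.49 ± 0.25 in the 24 h controls, with no overlap, which follows from the lack of overlap of each gene. It was -0.13 ± 0.32 in the 6 h controls and 0.15 ± 0.26 with oligomeric peptide. The 24 h controls also lay above the 6 h controls without overlap. Across the 12 arrays the correlation of MYC with MNT was -0.59, and it was 0.17 once each group's mean was removed. MYC with MYCN gave 0.14, and -0.02 within groups. The arrays of a group share their treatment and time, and these correlations are descriptions.

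**Figure D3:**
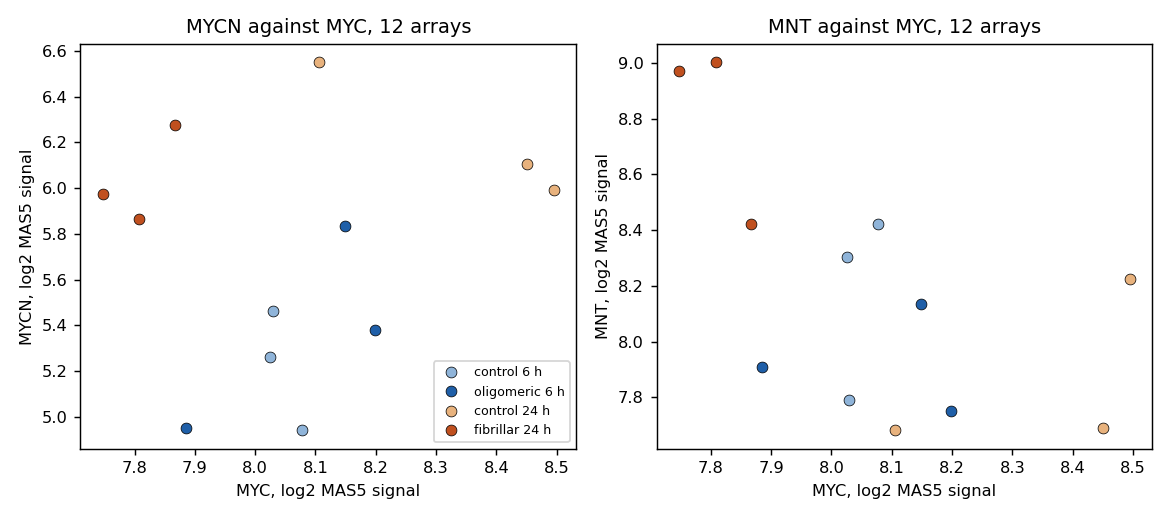
MYCN (left) and MNT (right) against MYC, as log2 MAS5 signals of the same array, for 12 arrays coloured by group. The fibrillar arrays lie at the low-MYC end, with MYCN values that overlap those of the 24 h controls and with the 3 highest MNT values.

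MAX, the obligate partner of MYC and MYCN (chr14:65006101-65102695), spanned 8.57 to 8.82 over the 12 arrays by its brightest probe set. The fibrillar change was 0.06 (SE 0.09, adjusted p = 0.829) and the oligomeric one -0.08. The other of its 2 probe sets above the filter, a dimmer one, went another way. Its log2 signals were 6.37, 5.98 and 6.34 in the 24 h controls and 5.89, 5.44 and 4.77 with fibrillar peptide, so the groups did not overlap. The difference was -0.86 (SE 0.23), and between the controls it was 0.52 higher at 24 h. The pair of probe sets thus differed in direction, and MAX is given as level by its brightest probe set alone.

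MLX (chr17:42567100-42573203), the second hub, was as even, from 8.15 to 8.40, with a fibrillar change of 0.10 (SE 0.08, adjusted p = 0.657). Its other 4 probe sets above the filter gave -0.09 to 0.22. Between the controls they gave -0.30 to 0.91. Between the treated groups the dimmest of them stood at 0.63 and the brightest at -0.22, each without overlap. MLX too is thus given as level by its brightest probe set alone. MGA (chr15:41621224-41769940), the largest protein of the network, ranged from 7.49 to 7.94 and did not change with either preparation past the threshold (fibrillar 0.02, SE 0.10, adjusted p = 0.964). Its 24 h controls lay below its 6 h controls without overlap, by 0.20 on average (-0.20, adjusted p = 0.216). Of its 3 other probe sets, the dimmest stood apart: it was 0.88 lower on the log2 scale with fibrillar peptide (-0.88, SE 0.36) and 1.18 higher in the 24 h than in the 6 h controls, each without overlap. The remaining pair of MGA probe sets gave -0.12 and -0.19 in the fibrillar comparison.

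**Figure D4:**
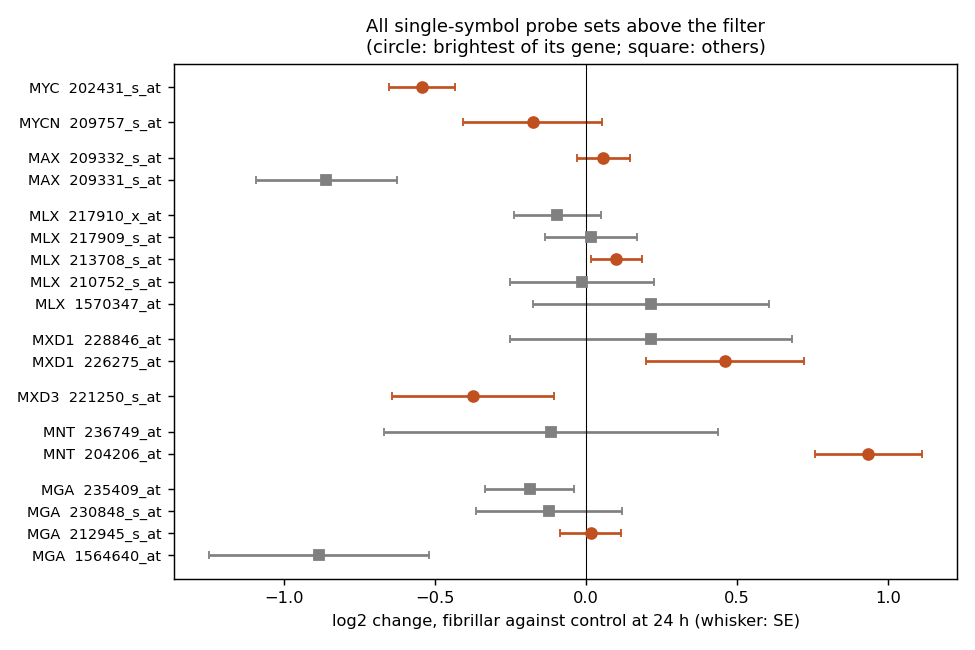
Log2 change of fibrillar against 24 h control cells, with its SE, for all 18 single-symbol probe sets of the members that lay above the filter; circles mark the brightest of each gene and squares the others. Probe sets of one gene differed for MAX (0.06 and -0.86), MNT (0.93 and -0.12) and MGA (0.02 to -0.88).

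MXD1 (chr2:69915109-69942945), a repressor that is switched on as cells leave the cycle, ranged from 5.07 to 6.44. The widest spread was among the fibrillar arrays (5.83 ± 0.64, n = 3), which overlapped the 24 h controls (5.37 ± 0.20). The change of 0.46 missed the threshold (SE 0.27, adjusted p = 0.476), and a second probe set gave 0.21 (SE 0.47). MXD3 (chr5:177305499-177312752), which unlike its relatives is produced in cycling cells, ranged from 5.01 to 6.21. It stood at -0.37 with fibrillar peptide (SE 0.27, adjusted p = 0.601) and at 0.49 with oligomeric peptide (adjusted p = 1.0), with overlap in both. With oligomeric peptide MXD1 stood at 0.33 (adjusted p = 1.0), also with overlap. MXD4 lies at chr4:2247432-2262109 and has no value here.

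With oligomeric peptide none of the 8 members was called and none had groups without overlap. Over all genes limma called 0, and 327 (2.78%) had an unadjusted p under 0.05. Groups without overlap made up 7.36% of all genes. The members' changes ran from -0.24 for MNT to 0.49 for MXD3.

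The rest of the pathway was read through lists of genes chosen by their known roles, with earlier results of these data known. With fibrillar peptide 1.19% of all genes were called, a share to set beside each fibrillar count below. Of 6 other network genes tested, TFE3, an E-box factor of lysosome genes, rose with fibrillar peptide by 0.40 (SE 0.09, adjusted p = 0.042), and the list's median was 0.11. MYCL, MLXIPL (ChREBP) and TFAP4 lay below the filter. None of 19 MYC cofactors and corepressors was called (median -0.04). Among them KAT2A, an acetyltransferase that MYC recruits, stood at 0.35 (adjusted p = 0.336) and KAT5 at -0.25 (adjusted p = 0.386). None of 13 genes of MYC and MYCN protein turnover was called either (median 0.06). The deubiquitinase USP36 stood at 0.37 (adjusted p = 0.247) and USP22 at -0.06 (adjusted p = 0.732).

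Of 50 genes known to be raised by MYC, 41 were tested, and with fibrillar peptide 1 rose and none fell, against 0.798% and 0.391% of all genes. The one that rose was TFRC, the transferrin receptor, by 0.45 (SE 0.10, adjusted p = 0.0426). The list's median was -0.09 against -0.00053 over all genes, and 29 of the 41 were lower and 12 higher. Groups did not overlap for 8 of them in the lower direction and 3 in the higher one, against 8.73% and 10.9% of all genes. ODC1, the first enzyme of polyamine synthesis and a classic MYC target, stood at 0.23 (adjusted p = 0.147). NCL, nucleolin, stood at 0.15 (adjusted p = 0.547).

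Of 12 tested genes known to be lowered by MYC, 2 rose with fibrillar peptide and none fell, with a median of 0.26 and 9 of 12 higher, where 0.798% of all genes rose and 0.391% fell. Groups did not overlap for 5 of them in the higher direction and 1 in the lower one, against 10.9% and 8.73% of all genes. CDKN1B, the cell-cycle inhibitor p27, rose by 0.33 (SE 0.07, adjusted p = 0.0321). GADD45A, a stress-induced growth arrest gene, rose by 0.67 (SE 0.14, adjusted p = 0.0341). CDKN1A, the inhibitor p21, stood at 0.43 without overlap and was not called (adjusted p = 0.157). Of the 8 MLX and MondoA targets tested none was called, against 1.19% of all genes, with a median of 0.24 and 7 of 8 higher. KLF10 stood at 0.44 (adjusted p = 0.0546), ARRDC4 at 0.34 (adjusted p = 0.402), TXNIP at 0.14 (adjusted p = 0.733) and ACACA at -0.33 (adjusted p = 0.418).

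Among 8 tested genes listed as neighbours of MYCN, TRIB2, a pseudokinase gene, rose with fibrillar peptide by 0.43 (SE 0.10, adjusted p = 0.045). No other gene of that list was called, where 1.19% of all genes were, and the list's median was 0.08. MYCNOS, antisense to MYCN, lay below the filter. The calls of all 5 list genes were sensitive to single arrays: TFRC lost its call without any 1 of the 6 arrays compared. Of the same 6 fits, TFE3, CDKN1B, GADD45A and TRIB2 kept theirs only in that without fibrillar replicate 2, where each rise was larger (0.43, 0.37, 0.80 and 0.58). All 5 changes stayed positive, from 0.29 for CDKN1B to 0.80 for GADD45A over these fits. Of 12 other settings, the call was lost in 3 for CDKN1B, 4 for GADD45A, 4 for TFRC, 5 for TFE3 and 6 for TRIB2, a constant prior variance among them for each. On averaging probe sets TFE3 stood at 0.20 (adjusted p = 0.433) and TRIB2 at 0.24 (adjusted p = 0.257).

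Over the same lists 0 genes were called with oligomeric peptide, and the list medians lay between -0.03 and 0.08. By the smallest p in each direction, the other network genes MXI1 and MLXIP stood at 0.15 and -0.19. The cofactors SKP2 and ZBTB17 stood at 0.20 and -0.36, and the ligase subunits FBXO28 and FBXW7 at 0.09 and -0.17. ODC1 stood at 0.18 with no overlap and UTP20, of ribosome assembly, at -0.18. GAS1 and TGFBI stood at 0.20 and -0.28, the glycolytic genes HK2 and PFKFB3 at 0.26 and -0.03, and the 2p24 genes SMC6 and CYRIA at 0.13 and -0.36. All had adjusted p-values of 1.0.

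Between the 24 h and 6 h controls the lists held more calls, as did all genes. Of the 41 tested genes raised by MYC 1 rose and 6 fell, against 3.76% and 7.92% of all genes (median -0.08, against -0.02 over all genes). TFRC rose by 0.32, while SHMT2, CDK4, ODC1 and SRM, of folate metabolism, the cell cycle and polyamine synthesis, fell by 0.70, 0.34, 0.32 and 0.35. Of the 12 tested genes lowered by MYC 1 rose and 3 fell (median -0.18): ITGB1 rose by 0.26, and TGFBI, NDRG1 and CLU fell by 1.34, 0.72 and 0.50. Both lists thus held more falls than rises, as did the whole array.

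The calls of the other lists stand beside the same shares, 3.76% of all genes higher and 7.92% lower. Among the 6 other network genes tested, MXI1, an MXD family repressor, rose by 0.58 (adjusted p = 0.000854) and TFE3 fell by 0.82 (adjusted p = 5.27e-05). Of the 19 cofactors and corepressors tested, BPTF rose by 0.28, and RUVBL2, TRRAP and PAF1 fell by 0.53, 0.38 and 0.48. Of the 13 turnover genes tested, USP36 and TRIM32 fell by 0.72 and 0.44. Of the 8 MLX and MondoA targets tested, TXNRD1 and PFKFB3 fell by 0.56 and 0.54. Of the 8 tested genes listed as neighbours of MYCN, LPIN1 rose by 0.34, and TRIB2 and NBAS fell by 0.38 and 0.45. Of these 8 genes 4 were higher and 4 lower at 24 h. The calls of MXI1, TFE3, RUVBL2, TRRAP, USP36, SHMT2, CDK4, ODC1, TGFBI and TXNRD1 held without any 1 of the 6 control arrays, and the other 12 were lost in at least 2 of those fits. With the RNA quality covariate, however, the calls of TRRAP (-0.32, adjusted p = 0.111), USP36 (-0.58, adjusted p = 0.143), ODC1 (-0.36, adjusted p = 0.0745) and TGFBI (-0.67, adjusted p = 0.190) were lost. On averaging probe sets TRRAP stood at -0.065 (adjusted p = 0.767) and USP36 at -0.49 (adjusted p = 0.0507). TFE3, TRIB2 and MYC have the 24 h controls in both the fibrillar and the control comparison, so their opposite signs there are not independent.

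**Figure D5:**
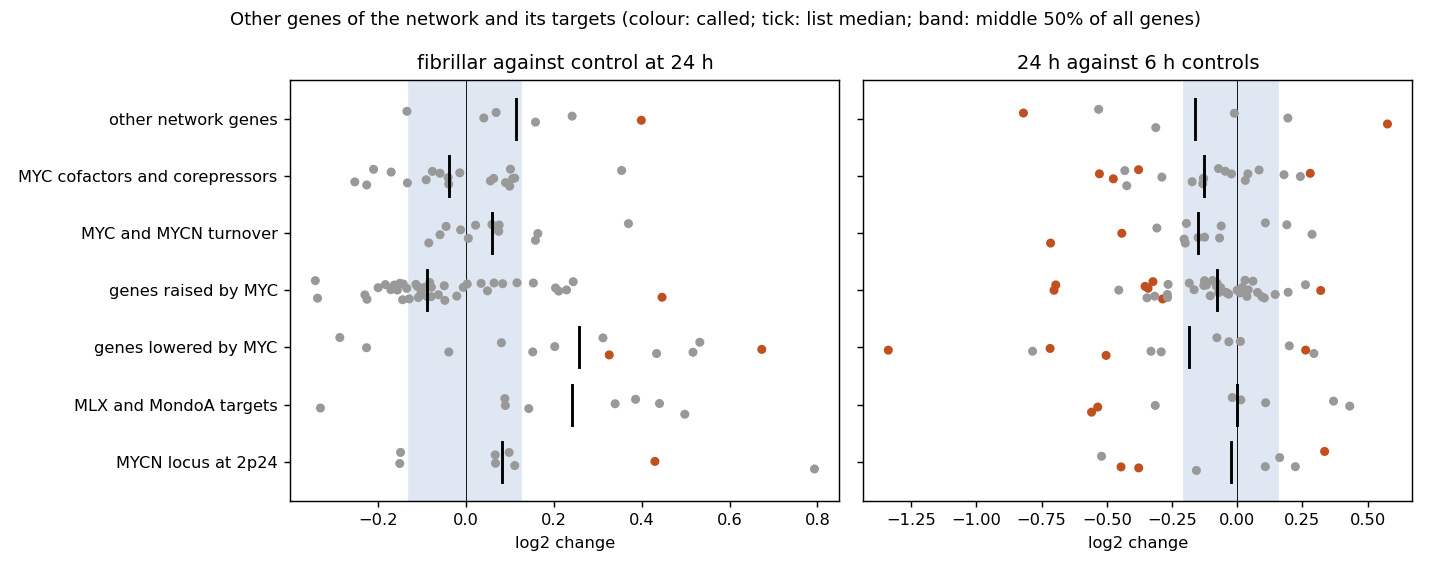
Log2 change of every tested gene of 7 lists, with fibrillar peptide (left) and between the 24 h and 6 h controls (right); colour marks called genes, the tick the list median, and the band the middle 50% of all genes. The list medians run from -0.09 to 0.26 on the left and from -0.18 to -0.0025 on the right.

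Between the treated groups, 12 of 41 genes raised by MYC fell and 1 rose (median -0.14), against 8.61% and 6.51% of all genes. Of the 12 genes lowered by MYC 4 rose and 1 fell (median 0.15). Between the controls 6 of the same 41 fell and 1 rose, and 1 of the same 12 rose and 3 fell. Peptide form and hours differ together between the treated groups. How these list calls depend on single arrays or settings was not tested. In the difference of the responses 0 genes of any list passed; over all genes 1004 (8.53%) had an unadjusted p under 0.05.

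Genes whose signal ran most like that of MYC over the 12 arrays were LRRN3 (Pearson r 0.92), CBR4 (0.91), ENGASE (0.90), GRIK2 (0.87) and ATP8B1-AS1 (0.87). The most opposed were DENND6A (-0.95), SLC7A11 (-0.93) and EPS8 (-0.89). For MYCN the most alike were SDHAF3 (0.93), ABHD18 (0.92), RICTOR (0.90), EPM2AIP1 (0.89) and TBC1D15 (0.89), and the most opposed WDR6, DYNC1H1 and KLC1 (-0.93 each). They were picked from 11774 genes for their likeness and the arrays share group and time, so the values are descriptions.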

How the data were processed

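RNA of 12 SH-SY5Y samples was hybridised to Affymetrix arrays, and the authors deposited 1 log2 signal for each probe set. MAS5, with no version given, is the tool named by the submitters' processing notes. Equal trimmed means (2 to 98%) between arrays show scaling before the log, so no further normalization was applied. MAS5 subtracts mismatch signal, so dim values are noisy. Of 54675 probe sets, 62 were controls, 41091 had 1 gene symbol, 1801 several and 11721 none. A gene was represented by its brightest single-symbol probe set and tested where its mean over the 12 arrays reached the median of all probe sets, log2 3.78 (signal 13.8).

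Groups were fitted together with limma 3.58.1 in R 4.3.3 (group means, eBayes with a prior trend), with Benjamini-Hochberg adjustment over 11774 genes. A gene was called at an adjusted p under 0.05. The number of arrays limits the precision: the median SE of a change was 0.13. The fit was tested on simulated data with independent noise in each gene. Those data held no RNA quality or other array effects, so that run says nothing of such effects. Members and lists were chosen with earlier results of these data known. The genes named from each list were those called, at most 4 in each direction by p, or 1 in each where none was; CDKN1A, ODC1, NCL, TXNIP and ARRDC4 were always given. For likeness, the 5 highest and 3 lowest correlations were taken, without uncharacterised genes. Alternatives covered normalization, filter, pseudocount (16), probe sets, prior variance, array weights, an RNA quality covariate, the replicate number as a block, the groups fitted, and each array left out. Sequences, loci and their build are those of the RefSeq tables (GRCh38.p14).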

Additional observations from a re-analysis of the deposited data

How the results depend on the processing

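With 3 arrays a group, calls near the threshold changed with the setting while sizes mostly held. The fibrillar fall of MYC was -0.54 and lost its call with median centring (-0.47), a constant prior variance (-0.54, adjusted p = 0.119), the RNA quality covariate (-0.56) and the 2 groups fitted alone (-0.54, adjusted p = 0.066). The fibrillar rise of MNT lost its call with the mean of its probe sets (0.41), a constant prior (0.93, adjusted p = 0.148), the covariate (0.68) and the 2 groups alone (0.93, adjusted p = 0.0517). MYC between the controls passed with array weights (0.32). MYCN between the controls lost its call with the covariate (0.85), as did its F test (3.98), and it was not tested at the 75th percentile filter. The F test of MYC lost its call with a constant prior (7.51). Leaving out 1 array gave fibrillar changes of -0.67 to -0.47 for MYC and 0.83 to 1.12 for MNT, each called in 8 of 12 fits. Every one of these losses came from leaving out a fibrillar or 24 h control array, the arrays compared. Between the controls leaving out 1 array gave 0.23 to 0.43 for MYC and 0.83 to 1.11 for MYCN. Between the treated groups it gave 0.43 to 0.87 for MYCN, and for the F test of MYC 5.36 to 13.5. The cause of these losses was not tested.

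Signs changed only for changes that were called in neither fit. Averaging a gene's probe sets, signs turned between the controls for MAX (0.24), MGA (0.16), MLX (0.15), MNT (0.27) and MXD1 (0.20), between the treated groups for MAX (-0.12), in the difference of responses for MAX (-0.36) and MGA (-0.31), with fibrillar peptide for MAX (-0.40), MGA (-0.29) and TXNIP (-0.022), and with oligomeric peptide for FBXO28 (-0.0049), MGA (0.018) and MNT (0.24). With the covariate they turned between the controls for MAX (0.039), MNT (0.17) and MXD1 (0.67) and in the difference for MXD1 (-0.52). Array weights turned MGA in the difference (-0.0027) and with fibrillar peptide (-0.014), and MYC (-0.017) and PFKFB3 (0.032) with oligomeric peptide. Median centring turned USP22 with fibrillar peptide (0.014) and MLX (-0.046) and MYC (-0.031) with oligomeric peptide. Leaving out 1 array crossed 0 between the controls for MAX (-0.090 to 0.032), MLX (-0.081 to 0.029) and MXD1 (-0.21 to 0.090), between the treated groups for MXD1 (-0.22 to 0.42), and in the difference for MGA (-0.021 to 0.15) and MXD1 (-0.18 to 0.46). It did so with fibrillar peptide for MAX (-0.014 to 0.11), MGA (-0.044 to 0.13) and TXNIP (-0.029 to 0.23), and with oligomeric peptide for CYRIA (-0.70 to 0.24), MGA (-0.053 to 0.028), MLX (-0.0048 to 0.062), MYC (-0.027 to 0.13), MYCN (-0.056 to 0.39), MYC less MYCN (-0.26 to 0.054) and PFKFB3 (-0.12 to 0.13).

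Median centring shifted the median of all genes by -0.13 between the controls and by 0.14 in the difference. The count of genes called with fibrillar peptide was 140, and 79 without the filter, 62 on averaging probe sets, 7 with a constant prior, 268 with array weights, 39 with the covariate and 35 with the 2 groups alone. It ran from 14 to 185 with 1 array left out. With the covariate 467 genes were called between the controls, against 1375, and a constant prior gave 1379 in the F test, against 2183. Leaving out 1 array gave at least 719 between the controls and at least 992 between the treated groups, against 1781. The difference of responses gave 5, and 0 to 27 over the other settings and 0 to 64 with 1 array left out. Same-numbered arrays correlated by 0.03 to 0.07 in their deviations at 24 h, above all differently numbered ones (-0.06 to 0.002). At 6 h they correlated by -0.02 to 0.09, within the range of differently numbered ones (-0.12 to 0.09). These values do not settle whether the numbers pair the arrays, and the main fit left the arrays unpaired. With the replicate number as a block the fibrillar changes were -0.54 for MYC (adjusted p = 0.0198) and 0.93 for MNT (adjusted p = 0.0105), and 184 genes were called.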
